A study of Mus musculus with 6 samples.

Results

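The Egr, Nr4a and Ier genes and Btg2 were compared between 2 populations of basal cells of the neonatal mouse prostate. The members are Egr1, Egr2, Egr3, Egr4, Nr4a1, Nr4a2, Nr4a3, Ier2, Ier3 and Btg2, taken as every array probe that the array design names for one of these genes. They amount to 10 genes and 11 probes, out of 55681 probes on the array, since Nr4a2 has 2 probes and each other gene has 1. Prostates were collected on postnatal day 6 (P6) from male FVB/N mice carrying the transgene Tg 11.5kb-GFP, in which the promoter of s-SHIP, a short form of the SHIP1 phosphatase, drives GFP. The tissue was digested with collagenase for 60 min at 37°C, and LSC cells, which are lineage-negative and positive for Sca-1 and CD49f, were sorted by flow cytometry into LSC GFP+ and LSC GFP- cells. Both populations carried the transgene, neither was treated, and GFP reports the activity of that promoter fragment rather than SHIP1 protein. Amplified RNA of 3 independent samples per population was hybridized to 6 one-colour arrays. How many mice went into a sample is not given in the sources used here.

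These genes belong to the immediate-early response, which cells start within minutes of a growth factor, a stress or tissue handling, without new protein synthesis. Kinase cascades activate factors already bound at the promoters, mainly SRF with its ternary complex partners at CArG boxes and CREB at cAMP response elements (CRE). Egr proteins are zinc finger transcription factors that bind GC-rich sites, Nr4a proteins are orphan nuclear receptors that act without a known hormone and bind the element NBRE, Ier2 and Ier3 are small early response proteins, and Btg2 is an antiproliferative protein that binds the CCR4-NOT deadenylase.

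The promoters are shown because the members share their regulation as a textbook class. RefSeq promoter windows on GRCm38.p6, from 250 bases before to 50 bases after a transcription start, were at hand for 7 of the 10 genes and were searched on both strands for 6 motifs. The CRE half-site TGACG was found in 6 of these 7 genes, namely Egr2, Egr4, Nr4a1, Nr4a2, Nr4a3 and Btg2, while 23% of the 27025 genes with a window hold it. The windows of Nr4a1, Nr4a2 and Nr4a3 have 4 half-sites each, and the window of Ier3 has none. Member windows were also richer in G and C, with a median of 64.7% against 52.7% over all 32851 windows, so the share of genes with a half-site is not matched for base composition. Stretches that hold the motifs are printed 5′ to 3′ on the strand of the gene, with the motifs in capitals (CGTCA is the half-site read on the other strand).
Egr2, chr10:67537793-67537822, plus strand: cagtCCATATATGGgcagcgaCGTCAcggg
Egr4, chr6:85513684-85513776, minus strand: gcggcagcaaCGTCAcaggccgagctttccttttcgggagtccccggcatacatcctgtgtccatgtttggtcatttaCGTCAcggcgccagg
Nr4a1, chr15:101266603-101266820, plus strand: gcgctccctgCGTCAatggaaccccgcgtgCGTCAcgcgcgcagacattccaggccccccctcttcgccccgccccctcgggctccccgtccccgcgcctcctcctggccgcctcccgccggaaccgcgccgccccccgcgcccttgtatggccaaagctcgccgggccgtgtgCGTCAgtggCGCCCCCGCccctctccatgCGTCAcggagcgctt
Nr4a2, chr2:57124100-57124213, minus strand: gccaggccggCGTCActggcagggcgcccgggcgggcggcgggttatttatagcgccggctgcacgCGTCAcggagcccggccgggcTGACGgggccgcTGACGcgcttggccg
Nr4a3, chr4:48045064-48045172, plus strand: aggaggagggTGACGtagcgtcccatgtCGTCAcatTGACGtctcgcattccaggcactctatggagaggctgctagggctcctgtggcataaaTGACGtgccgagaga
Btg2, chr1:134079304-134079331, minus strand: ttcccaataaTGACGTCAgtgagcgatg

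The Egr2 stretch, upstream of one of its several annotated starts, holds a CArG box, 10 capitals long, followed by a half-site. Further matches in windows of Egr2, another half-site upstream and another CArG box at an earlier start, are not printed. A CArG box was present in the windows of Egr2 alone among the 7 genes, and in 1.81% of all genes with a window. In Btg2 the 8 capitals are the full element TGACGTCA, which contains 2 overlapping half-sites and occurs in 2.03% of all genes. The longest capital run of Nr4a1 is the Egr site GCGGGGGCG read on the other strand, found in 3.31% of all genes and in none of the other 6 members with a window. Neither GCGTGGGCG, another form of the Egr site, nor the Nr4a element AAAGGTCA was in a window of the 7 members, and they occur in 0.707% and 1.7% of all genes. A match describes letters in a window and not occupancy, and binding was not measured.

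All 10 genes had a higher mean in LSC GFP+ cells than in LSC GFP- cells. The differences on the log2 scale ran from 0.51 for Ier2 to 1.34 for Nr4a1, with a median of 0.96, whereas the median over all 37005 probes tested was -0.0043. With limma, 8 of 10 genes passed an unadjusted p under 0.05, Egr1, Egr2, Egr4, Nr4a1, Nr4a2, Nr4a3, Ier3 and Btg2, all of them higher in LSC GFP+ cells. That threshold called 7.9% of all probes tested in either direction, and 3.37% as higher in LSC GFP+ cells. Of the probes it called, 57.3% were lower in LSC GFP+ cells, and 46.9% were under scaling by the array median. After Benjamini-Hochberg adjustment over all probes none of the 10 passed 0.05, with adjusted p values from limma between 0.136 and 0.694, and only 0.0027% of all probes, a single probe, did so. The methods' t-test passed 5 of 10 members at an unadjusted p under 0.05, and none after adjustment. That test called 2798 of the 37005 probes, 1579 of them as higher in LSC GFP+ cells. Without LSC GFP- replicate 2, limma passed 4 of 10, Egr2, Nr4a1, Nr4a2 and Ier3. That fit called 2292 of 37297 probes, 868 of them as higher. In 7 of 10 genes the 3 LSC GFP+ values all lay above the 3 LSC GFP- values, which was true of 6.61% of all probes tested. An exact two-sided permutation test of 3 arrays against 3 cannot give a p below 0.1.

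Values are log2 signals relative to the 75th percentile of the array, so 0 is that percentile and a difference of 1 is a doubling. The signals of different probes are not on a common scale, and levels are compared only within a gene or, as a sum, within the same list of genes. All 10 genes were well above background on all 6 arrays, and no spot on the arrays was saturated. Between 36656 and 42128 probes per array were well above background, and the correlation of the log2 signals between arrays was 0.963 to 0.979. In sorted bulk samples, fewer cells that express a gene and less of its RNA per cell cannot be told apart.

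**Figure D1:**
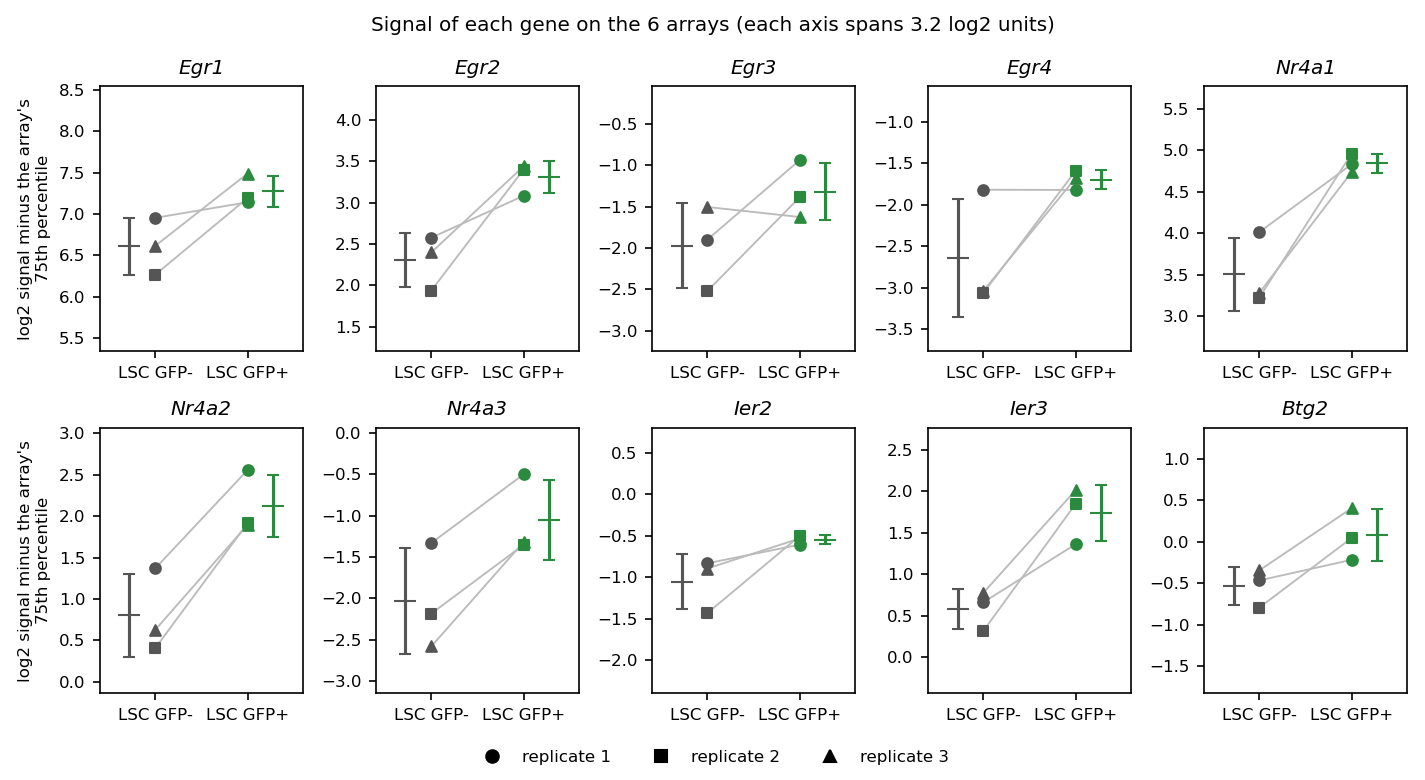
Log2 signal relative to the array's 75th percentile for each of the 10 genes, with LSC GFP- in grey on the left and LSC GFP+ in green on the right of each panel. Symbols are single arrays joined by replicate number, and the bars beside them give the mean and SD of 3. The green points lie entirely above the grey ones in 7 panels, and overlap in those of Egr3, Egr4 and Nr4a3.

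Among the Egr genes, Egr1 and Egr2 separated the populations fully, and Egr3 and Egr4 did not. Egr2, the factor known from hindbrain and Schwann cell development, read 3.08, 3.40 and 3.44 in LSC GFP+ replicates 1, 2 and 3 and 2.58, 1.94 and 2.40 in the LSC GFP- replicates. Each LSC GFP+ array was thus above each LSC GFP- array. The means were 3.31 ± 0.19 and 2.31 ± 0.33 (SD, n = 3), a difference of 1.0 ± 0.23 (SE), or 2.0-fold, with adjusted p = 0.213 from limma. Its probe lies at chr10:67004798-67004857 of mm9, the build of the array design and of all probe positions given here, which differs from that of the promoter windows. No exon annotation of mm9 was used here.

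Egr1, the best known member of the family and a rapid responder to growth factors, had 7.14, 7.19 and 7.49 in LSC GFP+ cells and 6.95, 6.27 and 6.62 in LSC GFP- cells. The populations did not overlap, but LSC GFP- replicate 1 was within 0.19 of its LSC GFP+ partner. The means were 7.27 ± 0.19 and 6.61 ± 0.34 (SD, n = 3). The difference of 0.66 ± 0.24 (SE), or 1.58-fold, had adjusted p = 0.482 from limma, for the probe at chr18:35024395-35024454. Its call was lost when replicate 3 of the LSC GFP+ cells (0.55) or replicate 2 (0.49) or 3 (0.66) of the LSC GFP- cells was left out.

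Egr4, known for its role in male fertility, stood at -1.82, -1.59 and -1.68 in LSC GFP+ cells and at -1.82, -3.06 and -3.04 in LSC GFP- cells. LSC GFP- replicate 1 was at the level of the LSC GFP+ arrays, and the other two LSC GFP- arrays were clearly below. The means of -1.70 ± 0.12 and -2.64 ± 0.71 (SD, n = 3) differed by 0.94 ± 0.34 (SE), or 1.92-fold, with adjusted p = 0.495 from limma (probe at chr6:85461153-85461212). The difference was 0.45 with normexp background correction, still at p under 0.05. The call was lost in the methods' t-test, and without LSC GFP+ replicate 2 (0.89) or 3 (0.93) or LSC GFP- replicate 2 (0.73) or 3 (0.74).

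Egr3, which acts downstream of antigen and neurotrophin receptors in other tissues, read -0.94, -1.39 and -1.63 in LSC GFP+ cells. In LSC GFP- cells it read -1.90, -2.52 and -1.51. LSC GFP- replicate 3 was higher than LSC GFP+ replicate 3, so the populations overlapped. The difference of 0.66 ± 0.31 (SE) did not pass an unadjusted p under 0.05, with adjusted p = 0.694 from limma and a 95% interval from -0.058 to 1.37. It was 0.38 without LSC GFP- replicate 2, and passed without LSC GFP+ replicate 3 (0.81) or LSC GFP- replicate 3 (0.89). Its probe is at chr14:70479222-70479281.

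The Nr4a genes gave the largest difference among the members. Nr4a1 (Nur77) read 4.83, 4.96 and 4.74 in LSC GFP+ cells and 4.02, 3.23 and 3.28 in LSC GFP- cells. The LSC GFP+ arrays lay close together and the LSC GFP- arrays were all lower and more scattered. The means were 4.85 ± 0.11 and 3.51 ± 0.44 (SD, n = 3). They differed by 1.34 ± 0.26 (SE), or 2.52-fold, with a 95% interval from 0.75 to 1.93, and limma gave an adjusted p of 0.136, the lowest among the members. The probe is at chr15:101105071-101105130, and the promoter stretch of this gene printed above holds 4 half-sites.

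Nr4a2 (Nurr1), needed for midbrain dopamine neurons, was measured by 2 probes. The brighter one, at chr2:56960699-56960758, read 2.55, 1.91 and 1.89 in LSC GFP+ cells and 1.37, 0.41 and 0.63 in LSC GFP- cells. Replicate 1 was the highest in both populations, and the populations did not overlap. The difference was 1.32 ± 0.31 (SE), or 2.49-fold, with adjusted p = 0.216 from limma. The dimmer probe, at chr2:56959637-56959696, read 1.34, 1.07 and 0.89 against 0.62, -0.68 and -0.34, and differed by 1.23 ± 0.34 (SE) with adjusted p = 0.303 from limma. Both probes of the gene therefore gave the same direction and a similar size. Counted by probe, 9 of 11 members passed an unadjusted p under 0.05, which 7.9% of all probes tested did in either direction.

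Nr4a3 (Nor1), the third receptor of the family, is printed on the array in 10 spots. The spots agreed within an array, with an SD between 0.075 and 0.16. Their mean was -0.50, -1.35 and -1.32 in LSC GFP+ cells and -1.33, -2.18 and -2.58 in LSC GFP- cells. Replicate 1 was again the highest of each population, and LSC GFP- replicate 1 lay between the LSC GFP+ values. The means of -1.06 ± 0.48 and -2.03 ± 0.64 (SD, n = 3) differed by 0.97 ± 0.37 (SE), or 1.96-fold, with adjusted p = 0.538 from limma. Within replicates 1, 2 and 3 the differences were 0.83, 0.83 and 1.26. Nr4a3 also passed an unadjusted p under 0.05 with the replicate block. The call was lost in the methods' t-test, and without replicate 1 of the LSC GFP+ cells (0.69) or replicate 2 (0.90) or 3 (0.70) of the LSC GFP- cells. With normexp background correction the difference was 0.58. The listed position, chr4:48080690-48083876, spans 3187 bases, where each other member probe spans 60.

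Of the 2 Ier genes, Ier3 passed the test and Ier2 did not. Ier3 (IEX-1), a regulator of cell survival under stress, read 1.36, 1.85 and 2.01 in LSC GFP+ cells and 0.66, 0.31 and 0.77 in LSC GFP- cells. The lowest LSC GFP+ array was well above the highest LSC GFP- array. The means of 1.74 ± 0.34 and 0.58 ± 0.24 (SD, n = 3) differed by 1.16 ± 0.24 (SE), or 2.23-fold, with adjusted p = 0.167 from limma (probe at chr17:35959528-35959587). Ier2, a nuclear protein of the early response, read -0.61, -0.50 and -0.53 in LSC GFP+ cells and -0.83, -1.43 and -0.90 in LSC GFP- cells. Its populations did not overlap either, but only LSC GFP- replicate 2 was far from the rest. The difference of 0.51 ± 0.22 (SE), the smallest among the members, had adjusted p = 0.642 from limma, and passed an unadjusted p under 0.05 only in some alternatives, the replicate block among them (probe at chr8:87186214-87186273). Without LSC GFP- replicate 2 it was 0.32 and did not pass.

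Btg2, which is also a target of p53, read -0.21, 0.048 and 0.41 in LSC GFP+ cells and -0.46, -0.79 and -0.34 in LSC GFP- cells. All 3 LSC GFP+ arrays were above all LSC GFP- arrays, by the narrow margin of replicate 1 over LSC GFP- replicate 3. The difference was 0.61 ± 0.24 (SE), or 1.53-fold, with adjusted p = 0.543 from limma (probe at chr1:135972094-135972153). Leaving out LSC GFP+ replicate 2 or 3, or LSC GFP- replicate 1 or 2, ended the call, at differences between 0.45 and 0.65, as did the methods' t-test. Among the other genes of its family and of the deadenylase, 0 of 9 tested genes passed an unadjusted p under 0.05 in limma, with or without the replicate block, and the median difference was 0.20 (range -0.21 to 0.29). Without the block, 7.9% of all probes tested passed in either direction.

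**Figure D2:**
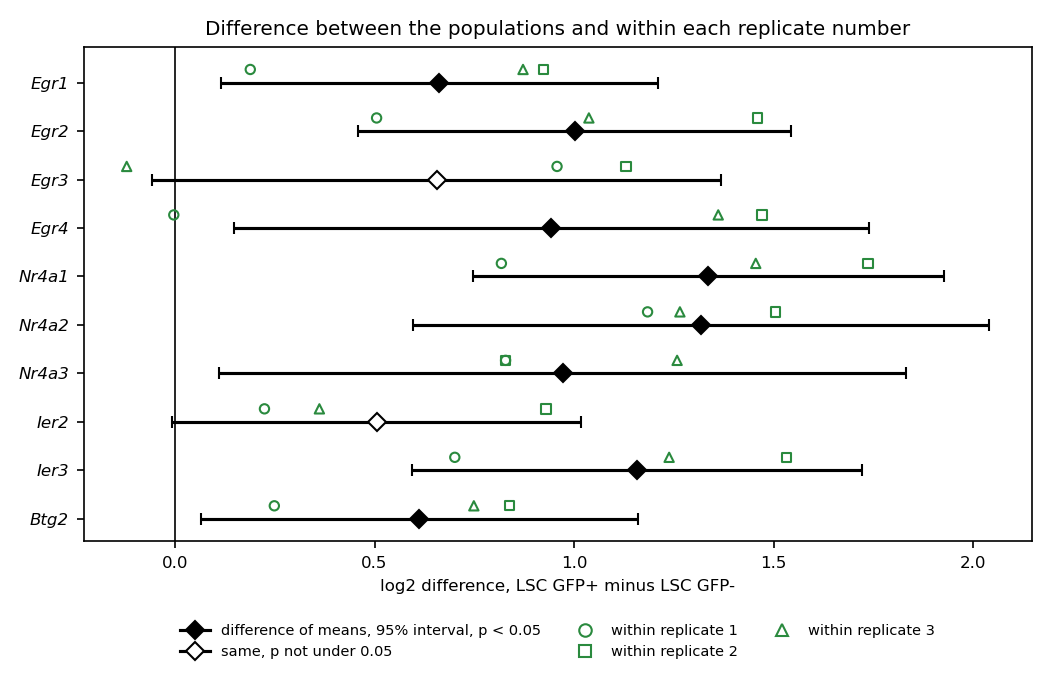
Log2 difference, LSC GFP+ minus LSC GFP-, of each gene as a diamond with its 95% interval, and the differences within replicates 1, 2 and 3 as green circles, squares and triangles. Filled diamonds mark an unadjusted p under 0.05, which 8 genes reached. Of the 30 differences within a replicate number, the 2 below 0 are Egr3 in replicate 3 and Egr4 in replicate 1.

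Samples of the same replicate number deviated together, least clearly in replicate 2, so the differences were also taken within each number. A total of 8 of 10 members were higher in LSC GFP+ cells in all 3 pairs, compared with 21.4% of all probes tested. The median difference of the members was 0.60 in replicate 1, 1.30 in replicate 2 and 1.14 in replicate 3, where the medians over all probes tested were 0.092, -0.078 and 0.0024. Replicate 1 thus had the smallest median separation. When the replicate number was a block in the limma fit, 9 of 10 members passed an unadjusted p under 0.05, all but Egr3, and that fit called 5473 of all probes in either direction and 6.74% as higher in LSC GFP+ cells, where the fit without the block called 2924 in either direction.

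The members moved largely together over the arrays. Each of the 3 LSC GFP+ arrays was above the mean of the gene over 6 arrays for 10 of 10 members. That pattern largely restates the population difference given above, and its share over all probes was not counted. LSC GFP- replicate 2 had the lowest value of 9 members, and LSC GFP- replicate 3 that of Nr4a3. LSC GFP- replicate 1 was nearest to the LSC GFP+ cells, with a median deviation of -0.13 from the mean of each gene, compared with -0.86 and -0.40 for replicates 2 and 3. Across the 6 arrays the 45 pairs of members correlated with r from 0.42 to 0.98 and a median of 0.85, a description of 6 points that share their libraries and hold the population difference itself. The genes most like Egr1 over the 6 arrays, of 15881 compared, were Hspbp1, Fosb and Htra1, with r of 0.995, 0.992 and 0.992. Those most like Nr4a1 were Smoc2, Slain2 and Pard3, with r of 0.995, 0.993 and 0.99. For Ier3 they were Emid1, Peli2 and Pdlim4, each with r of at least 0.997. These are the highest of 15881 correlations over 6 points, so a high r alone says little about a gene. Hspbp1, Slain2 and Emid1 did not pass an unadjusted p under 0.05 between the populations, and the others named did.

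Some further genes of the early response were also higher in LSC GFP+ cells. Of a list of 50 other early response genes 47 could be tested, 16 passed an unadjusted p under 0.05 as higher in LSC GFP+ cells and 0 as lower, and the median difference was 0.40 (range -0.52 to 1.11). Over all probes tested, 3.37% passed as higher. The count of higher genes was 10 without LSC GFP+ replicate 3 and 10 without LSC GFP- replicate 2. The highest was Nfil3, a bZIP repressor, at 1.11 (adjusted p = 0.213 from limma), followed by the small Maf protein Maff at 1.02 and by Dusp6, the phosphatase that switches off ERK, at 1.01 (adjusted p = 0.13 from limma). Atf3, a stress-induced CREB family factor, differed by 0.92 and Myc by 0.92, both past the threshold. Of the 7 Fos and Jun family genes in the list 4 passed, Fosb at 0.69, Fosl1 at 0.66, and Jun and Junb at 0.56 each. Fosl2 and Jund, at -0.042 and 0.00019, did not pass, and these are named with Fosb and Fosl1 to account for the family. Fos did not pass the threshold, at 0.61 with adjusted p = 0.65 from limma, although its values of 4.07, 4.26 and 4.81 against 3.87, 3.39 and 4.04 did not overlap. Fosl1 entered the test only through the LSC GFP+ cells, being well above background on 3 LSC GFP+ arrays and 2 LSC GFP- arrays. The same holds for Dusp4 and Dusp5, which are named for this reason. With normexp background correction Fosl1 (0.16) and Junb (0.29) did not pass, while Fosb, Jun and Fos did. With the replicate block 23 of the 47 were called as higher, Fos, Fosl1 and Dusp4 among them. That fit called 6.74% of all probes tested as higher. It called 2 of the 47 as lower, Sgk1 and Rgs2, which are named because of these values. The remaining 3 genes, Plk3, Areg and Ereg, were too dim to test, and Plk3 and Ereg were above background on none of the arrays.

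Few genes that act upstream of the members or beside them passed the test, which 3.37% of all probes tested passed as higher. Of 21 factors and kinases that drive the response 20 were tested, and 1 passed an unadjusted p under 0.05 as higher, Fhl2, a LIM protein and SRF partner, at 0.63 (adjusted p = 0.43 from limma). The median of the 20 was 0.11. SRF itself did not pass, with a difference of 0.34, adjusted p = 0.804 from limma and values of 3.60, 3.87 and 3.50 against 3.27, 3.39 and 3.27. Of the 5 partners of Egr and Nr4a proteins, Nab1, a corepressor of Egr factors, passed at 0.61 (adjusted p = 0.35 from limma). Nab2, the other corepressor and itself an Egr target, did not pass, at 0.21 with adjusted p = 0.98 from limma. Of the textbook Egr target genes, Thbs1, coding for the matrix protein thrombospondin 1, passed at 1.34 and Pdgfa, a growth factor chain, at 0.92. No gene of that list passed as lower in the fit without the block, and 1 did with the replicate block.

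**Figure D3:**
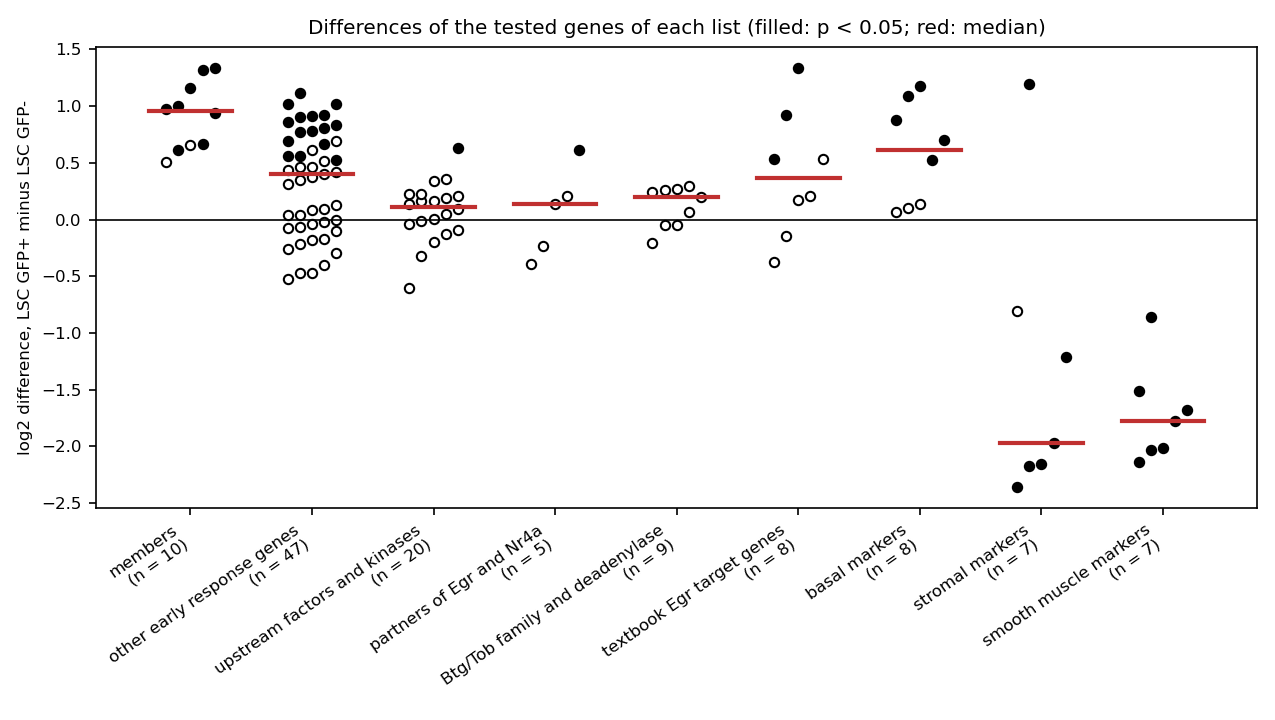
Log2 difference, LSC GFP+ minus LSC GFP-, of every tested gene in the members and in 8 other lists, with filled points for an unadjusted p under 0.05 and a red line at each median. The median of the members is 0.96 and that of the other early response genes 0.40, while those of the stromal and smooth muscle markers are -1.97 and -1.78.

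Basal markers were read in both populations. Krt5, Krt14 and Trp63 were well above background on all 6 arrays, as were leukocyte markers (below), so that level alone does not establish basal identity. Of 8 basal markers 5 passed an unadjusted p under 0.05 as higher in LSC GFP+ cells, Krt5 (0.70) and Krt14 (1.18) among them. Trp63 (0.11), Dst (0.067) and Itgb4 (0.13) did not pass, each read only at its brightest probe. The paper names Trp63, beside Krt5 and Krt14, among the basal markers enriched in LSC GFP+ cells. The summed levels of the 8 (log2, same scale as above) were 7.76 to 7.89 against 7.32 to 7.44. Such a sum is dominated by the brightest probes of its list. It does not measure an amount of cells, and sums of different lists are not compared. Markers of other cell types moved with the populations as well. Beside the counts here, the fit without the block called 1248 of 37005 probes as higher in LSC GFP+ cells and 1676 as lower. All 7 smooth muscle markers passed an unadjusted p under 0.05 as lower in LSC GFP+ cells, with summed levels of 2.94 to 3.69 against 4.71 to 5.72. Of the 7 stromal markers 5 passed as lower and 1, Dcn, as higher, with summed levels of 4.22 to 4.64 against 4.38 to 5.88. Pdgfra, 1 of the 5, entered the test only through the LSC GFP- cells. It was well above background on 2 LSC GFP+ arrays and 3 LSC GFP- arrays. The highest stromal and smooth muscle sums belonged to LSC GFP- replicate 1, the LSC GFP- array nearest to LSC GFP+ cells in the members. LSC GFP- replicate 2, the lowest in 9 members, had the lowest sums of its population. Of the glial and neuronal markers 0 of 6 tested passed in the fit without the block. With the replicate block 3 of the 6 were called as lower in LSC GFP+ cells, Tubb3 (-1.30), Stmn2 (-2.63) and Sox10 (-0.66), each lower in all 3 pairs, with summed levels of the list of 7.995 to 8.37 against 7.94 to 8.44. The block fit called 2979 of the 37005 probes tested as lower. Of the leukocyte markers 0 of 7 tested passed, with or without the block, and the summed levels were 4.68 to 4.96 against 4.71 to 4.75. These 7, Ptprc (CD45) among them, were well above background on all 6 arrays, and Lyz2 was on none. Of the endothelial markers 1 of 5 tested, Vwf, passed as lower, with summed levels of 2.52 to 2.76 against 2.61 to 2.83. Kdr, Cldn5 and Vwf were well above background on all 6 arrays, Pecam1 (CD31) on 5, and Cdh5 on none of the LSC GFP+ arrays. Of the red cell markers 0 of 2 tested passed. The part of these other cells in the differences of the members was not tested.

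**Figure D4:**
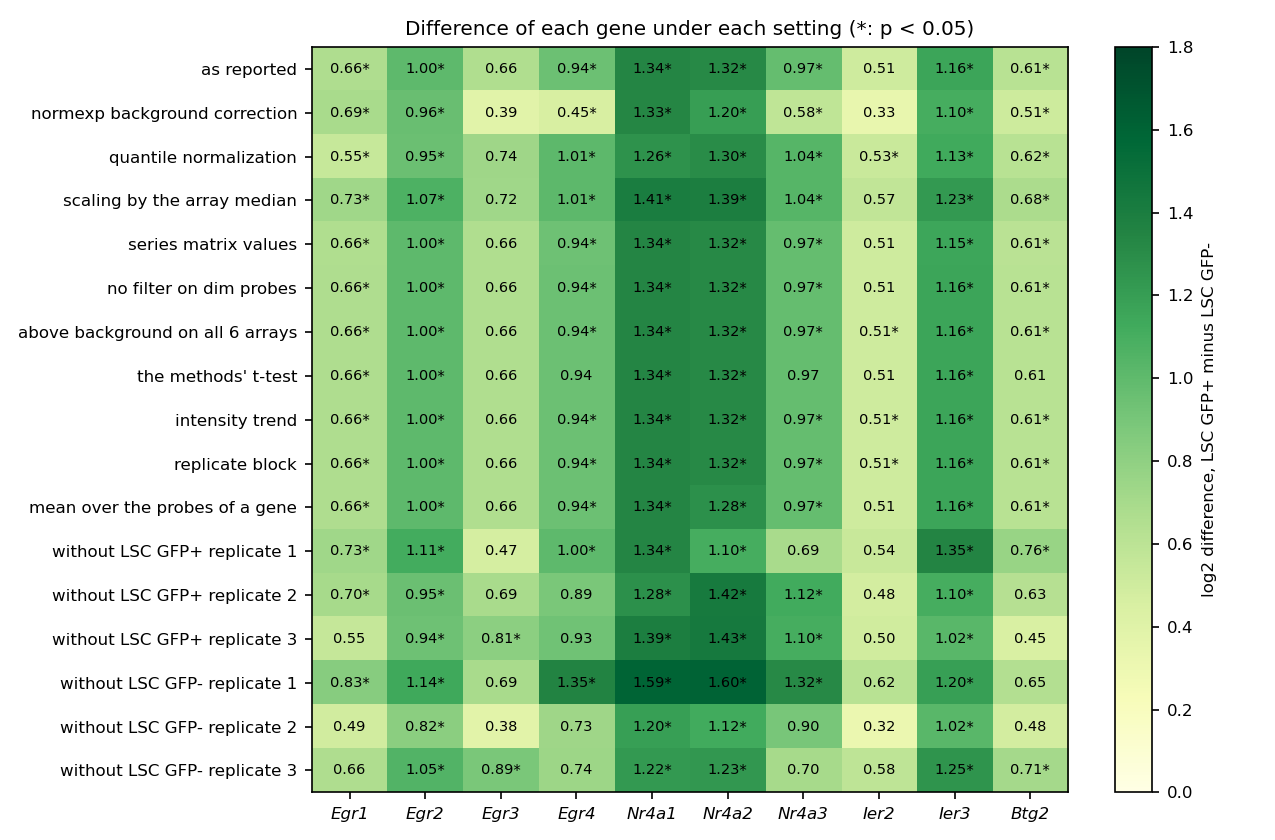
Log2 difference, LSC GFP+ minus LSC GFP-, of each gene under the reported settings and 16 alternatives, with darker green for larger differences and an asterisk for an unadjusted p under 0.05. All 160 values of the alternatives are above 0, from 0.32 to 1.6, and the columns of Egr2, Nr4a1, Nr4a2 and Ier3 carry an asterisk in every line.

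The differences kept their sign under every alternative tried, while their size and call depended on the gene. Egr2, Nr4a1, Nr4a2 and Ier3 stayed at an unadjusted p under 0.05 under all 16 alternatives. Background correction with normexp gave smaller differences for Egr3 (0.39), Egr4 (0.45), Nr4a3 (0.58) and Ier2 (0.33). For Egr1 it gave 0.69, close to the reported 0.66.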

How the data were processed

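The members and the gene lists were chosen with earlier results of these data known. The authors hybridized Cy3-labelled amplified cDNA to SurePrint G3 Mouse arrays and quantified the spots with Feature Extraction, version 11.0.1.1 per the file headers. The deposited values are intensity on a linear scale, with background subtracted and a spatial trend removed, and without normalization between arrays. The deposited table of the whole series holds the same intensity values rounded, and served as an alternative.

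Processing here took log2 of the signals, less each array's 75th percentile. Outlier spots (123 to 154 per array) were left out and spots of a probe averaged. A probe entered the test if every array of either population had it well above background, which left 37005. The populations were compared by limma 3.58.1 (lmFit, eBayes; R 4.3.3), two-sided, and p values were adjusted by Benjamini-Hochberg across these probes. Of several probes for a gene the brightest stands for it, and intervals are 95%. The methods' t-test, Student's test at a p of 0.05 without correction, was an alternative. The number of arrays limits the precision, and all 6 arrays shared 1 slide and 1 scan time.

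Same-numbered samples deviated from their population means with correlations across probes of 0.43, 0.27 and 0.66, so the numbers in the sample labels were taken as pairs. Unlike-numbered samples gave -0.54 to 0.22, the highest for LSC GFP+ replicate 1 with LSC GFP- replicate 2. The labels do not state that same-numbered samples share animals, so the pairing is an assumption. Members were named with all their probes. Of the other lists, at most the 5 highest and 5 lowest genes past an unadjusted p of 0.05 were named, as well as Fos, Jun, Junb, Atf3, Srf, Nab1 and Nab2, and the 3 genes most correlated with Egr1, Nr4a1 and Ier3. All 11 member probes matched a RefSeq accession with the same symbol. Over the array 26582 probes matched a RefSeq accession, and the symbols of the others were not compared. Other alternatives were normexp with an offset of 50, quantile and median scaling, filters on dim probes, an intensity trend, the replicate block, the mean of a gene's probes and each array left out in turn. Some results on the Egr target genes and the luminal markers are not reported here.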

Additional observations from a re-analysis of the deposited data

How the results depend on the processing

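Of the 160 member values under alternatives, 137 kept their direction and side of an unadjusted p of 0.05, 17 lost the call, 6 gained it and 0 changed sign. The methods' t-test passed 5 of 10 members, losing Egr4, Nr4a3 and Btg2, and called 2798 of all probes in either direction. Fits with a single array left out called between 2282 and 4056 of all probes in either direction. With single arrays left out, the count of members past the threshold ran from 4 (without LSC GFP- replicate 2) to 7, that of member probes from 5 to 8, and that of other early response genes from 10 (without LSC GFP+ replicate 3, and without LSC GFP- replicate 2) to 16. Lower calls in that list, 0 as reported, were 2 under quantile normalization, the replicate block and without LSC GFP+ replicate 3, and 1 in the methods' t-test. The cause was not tested. Ier2 gained the call under quantile normalization, the filter on all 6 arrays, the intensity trend and the replicate block, and Egr3 without LSC GFP+ replicate 3 (0.81) or LSC GFP- replicate 3 (0.89). Without LSC GFP- replicate 2, Egr3 and Ier2 were at 0.38 and 0.32. The replicate block, which pairs the samples, raised the calls over all probes from 2924 to 5473, and changed no member's call but that of Ier2. Scaling by the array median moved the median of all probes to 0.065 and raised the higher calls from 1248 to 1469 against 1296 lower.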
